A study of Mus musculus with 26 samples.

Results

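Chaperone genes encode the proteins that fold, refold and sort other proteins, and 75 of the 10104 transcripts listed for either cell type belonged to them. They were chosen by gene symbol alone: heat shock proteins (Hsp followed by a to h or a number), J proteins (Dnaja, Dnajb and Dnajc), subunits of the cytosolic chaperonin (Tcp1 and Cct), prefoldin subunits, BAG proteins and the heat shock factors Hsf1 and Hsf2. All 75 were listed for oligodendrocytes (OLs, of 9751 transcripts) and 64 of them also for oligodendrocyte progenitor cells (OPCs, of 8530 transcripts). The 11 listed in OLs alone were Hspa1a, Hspa1l, Hspb6, Hspb8, Hspb11, Hspbap1, Dnajb2, Dnajb4, Dnajc2, Dnajc6 and Dnajc19. By class there were 31 J proteins, 12 members of the Hsp70 and Hsp110 families, 3 Hsp90s, the Hsp60 and Hsp10 pair, 2 small heat shock proteins, 7 chaperonin subunits, 6 prefoldin subunits, 6 BAG proteins and 2 heat shock factors. The remaining 4 matched by name: Hspbp1 is a nucleotide exchange factor for Hsp70, Hspbap1 is named for binding a small heat shock protein, Hspb11 is a component of intraflagellar transport, and Hspg2 encodes perlecan, a matrix proteoglycan that is no chaperone.

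The OPCs were derived from epiblast stem cells of the 129S/SvEv mouse strain and grown with bFGF and PDGFA. The OLs were made from OPCs in medium with the thyroid hormone T3, noggin, IGF-1, cyclic AMP and NT3, and were 40 h into differentiation when labelling began. Cells of both kinds took up 5-ethynyluridine (5-EU) for 24 h, the analogue was replaced with uridine, and labelled RNA was collected at 0, 1, 2, 4 and 6 h of this chase, in 3 OPC and 2 OL replicates. The study's methods call these biological replicates and give the OLs as matching 2 of the OPC replicates, without saying which, so the cell types share an origin that the main tests do not model. All values are therefore of RNA pulled down from pooled cultured cells, where fewer cells of a type and less RNA per cell cannot be told apart. Of 6 oligodendrocyte markers, all were listed in OLs with a summed 0 h level of 5997 and 2744 FPKM, and 2 were listed in OPCs at 37.6 to 55.1 FPKM. All 4 OPC markers were listed for both cell types, with Gpr17 and Pdgfra higher in OLs (log2 changes 5.51 and 1.70) and Cspg4 and Ptprz1 at log2 differences of -0.53 and -0.46 that did not pass. Of 4 astrocyte markers Slc1a3 was listed in OPCs (179 to 224 FPKM) and 3 in OLs (summed 104 and 165 FPKM), and of 4 neuron markers Tubb3 in OPCs (13.2 to 17.4 FPKM) and 2 in OLs (summed 27.7 and 25.9 FPKM). The part of such cells in the results was not tested, and no marker of microglia or pluripotent cells was listed for either.

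Hsp70 proteins hold exposed hydrophobic stretches of a client in a cycle driven by ATP, J proteins bring clients to them and stimulate ATP hydrolysis, and BAG and Hsp110 proteins exchange the nucleotide that ends the cycle. Hsp90 acts later, on nearly folded clients such as kinases and receptors, and prefoldin passes unfolded actin and tubulin to the chaperonin TRiC, a stacked ring whose cavity encloses them. Heat shock factors switch on many of these genes through heat shock elements, repeats of a short inverted unit in promoters, and separate sets of chaperones serve the endoplasmic reticulum (ER) and mitochondria.

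Labelled mRNAs of the chaperonin, Hsp90, Hsp60 and Hsp10 had half-lives at or near the longest value given, while most J protein mRNAs had shorter ones. A half-life is given in hours, from an exponential decay fitted to each replicate, and estimates beyond 6 h were set by the authors to a ceiling of 6 h. Of 64 chaperone mRNAs with a half-life in every replicate, 18 stood at the ceiling in all 5, against a background of 16.1% of transcripts. They were Tcp1, Cct2, Cct3, Cct5, Cct7 and Cct8, the cytosolic Hsp90aa1 and Hsp90ab1, the mitochondrial Hspa9, Hspd1 and Hspe1, the prefoldin subunits Pfdn1, Pfdn5 and Pfdn6, Bag1, Bag6, the ER J protein Dnajc10, and Hspg2. A single J protein among 26 was in that group. The median half-life of J proteins was 2.04, 1.97 and 2.47 h in OPC replicates 1, 2 and 3, and 3.04 and 5.26 h in OL replicates 1 and 2. Over all transcripts the same medians were 2.33, 2.05, 2.79, 4.15 and 4.05 h. The chaperonin and Hsp90 medians were 6 h in every replicate, so in each of the 5 replicates these classes lay above all transcripts, and J proteins lay below them in 4 of 5. No test was made between classes.

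**Figure D1:**
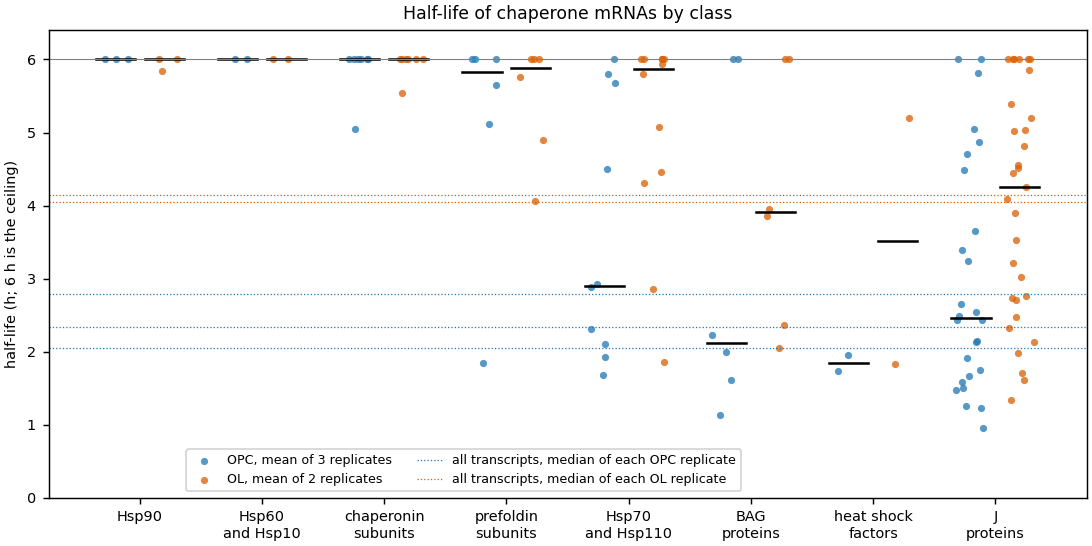
Half-life (h) of each chaperone mRNA by class, as the mean of 3 OPC replicates (blue) or 2 OL replicates (orange), with black bars for the class median and dotted lines for the median of all transcripts in each replicate. Hsp90, Hsp60 with Hsp10 and chaperonin mRNAs cluster at the 6 h ceiling, while J protein mRNAs spread from 0.955 h for Dnajb1 in OPCs up to the ceiling.

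The 7 listed chaperonin subunits were mostly long-lived. At 6 h of chase their median level was 53.4%, 80.6% and 76.8% of 0 h in OPC replicates 1 to 3, and 52.3% and 78.8% in OL replicates 1 and 2. All transcripts had medians of 14.4%, 11% and 17.7% in OPCs and 31.5% and 36.6% in OLs. Thus in every replicate the chaperonin median was above the median of all transcripts. By slope 2 of 7 subunits fell in OPCs (Cct3 and Cct4), beside 81.7% of all transcripts, and 4 of 7 in OLs (Cct3, Cct4, Cct5 and Tcp1), beside 68.4%. Cct4 was the 1 subunit with half-lives below the ceiling, with 23.7%, 27.0% and 46.0% left in OPCs and 32.4% and 52.0% in OLs at 6 h, and half-lives of 4.91, 4.24 and 6 h in OPCs and 5.08 and 6 h in OLs. Cct2 was the steadiest, at 58.6%, 113% and 101% in OPCs and 101% and 105% in OLs, and its slopes were 0.00 ± 0.04 and 0.03 ± 0.04 log2 units per h (± SE).

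Cct2 also had the highest labelled level of the subunits at 0 h in all 5 replicates. The chaperonin holds its subunits in equal number, yet the highest mRNA exceeded the lowest by 4.58, 3.54 and 4.07 times in the OPC replicates. In the OL replicates the same ratio was 1.87 and 2.41. FPKM is scaled to transcript length, but the RNA was pulled down by its 5-EU label. How evenly this recovers different mRNAs was not tested. Cct2 stood at 609, 471 and 497 FPKM in OPCs and at 209.7 and 245 FPKM in OLs, and Cct8 at 133, 133 and 122 FPKM in OPCs and 112 and 108 FPKM in OLs. The spread among subunits was thus narrower in both OL replicates than in any OPC replicate, a difference that was not tested.

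At 0 h both OL values lay below all 3 OPC values for each of the 7 chaperonin mRNAs, beside 31.4% of all transcripts, and 4 of 7 passed the test as lower in OLs, beside 15.8%. Levels were compared with limma on log2(FPKM + 1) across the 8177 transcripts listed for both cell types, at a Benjamini-Hochberg adjusted p under 0.05. Cct2 fell from 526 ± 73.2 FPKM (SD, n = 3) in OPCs to 227 ± 24.6 FPKM (SD, n = 2) in OLs, which is -1.20 ± 0.23 on the log2 scale (± SE, limma adjusted p = 0.00682). Tcp1, with 295, 269 and 263 FPKM in OPCs and 161 and 128 FPKM in OLs, changed by -0.94 ± 0.22 (limma adjusted p = 0.0156). Cct3 changed by -0.85 and Cct4 by -0.69. Cct7, Cct5 and Cct8 had log2 differences of -0.58, -0.52 and -0.23 and did not pass. The class median was -0.69, against -0.01 over all transcripts. All 7 kept the lower sign under every alternative scaling, filter and model tried and with any replicate left out. Under quantile normalization the class median was -0.46 and 1 subunit passed, and without OL replicate 1 no subunit passed.

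Across all 64 chaperone mRNAs tested at 0 h, 9 were higher in OLs, beside 13.8% of all transcripts, and 11 were lower, beside 15.8%. These shares of the members, 14.1% and 17.2%, were near the background. Lower in OLs were Cct2, Tcp1, Cct3, Cct4, Hspe1, Hspd1, Hsp90ab1, Hspa8, Dnajc27, Dnajc10 and Hspg2. Higher in OLs were Hspa2, Bag1, Hspa1b, Dnajb9, Dnaja1, Hspa4, Dnajc7, Dnajb14 and Dnajc3. Leaving out OL replicate 1, OL replicate 2 or OPC replicate 3 gave 4, 5 and 5 calls in place of 20. Cct4, Dnajc27 and Hspa8 kept their calls in 2 of 11 alternatives, Dnajc10 in 4, and Dnajb14, Dnajc3 and Hspa4 in 5. Cct3, Dnajc7 and Hsp90ab1 kept theirs in 6, Hspe1 in 7, and Dnaja1, Hspd1 and Tcp1 in 8. Cct2 and Dnajb9 did so in 9 and Bag1 in 10. Hspa2, Hspa1b and Hspg2 passed under all alternatives in which they were tested, and Hspg2 had 8.94, 11.1 and 9.42 FPKM in OPCs against 2.87 and 2.55 FPKM in OLs.

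**Figure D2:**
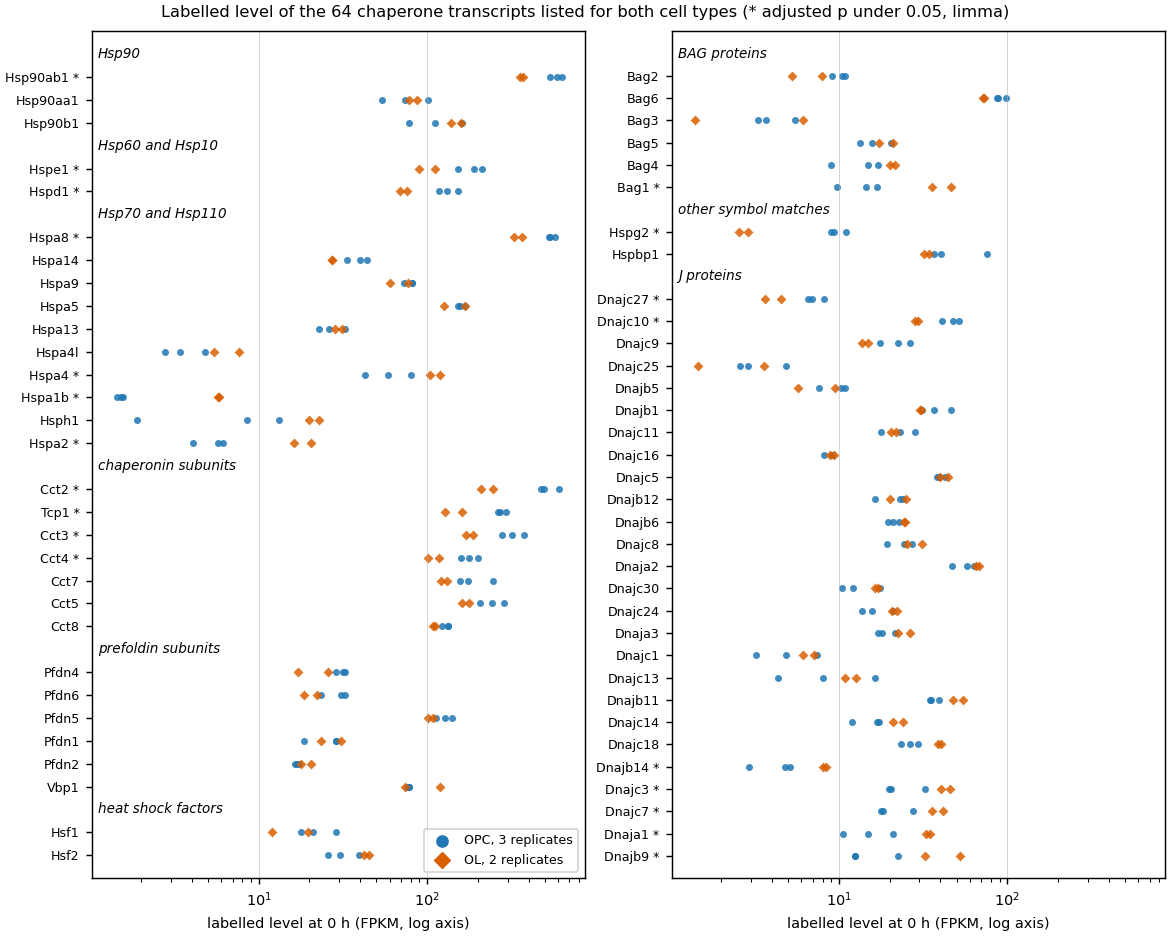
Labelled level at 0 h (FPKM, log axis) of the 64 chaperone transcripts listed for both cell types, with 1 point for each of 3 OPC replicates (blue circles) and 2 OL replicates (orange diamonds), grouped by class and ordered by log2 change. Every chaperonin subunit has its OL points left of its OPC points, and asterisks mark the 20 transcripts that passed the limma test.

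The mitochondrial folding chamber is made of Hspd1 (Hsp60), which forms the barrel, and Hspe1 (Hsp10), which forms its lid. Hspd1 stood at 132, 152 and 118 FPKM in OPCs and at 69.1 and 76.4 FPKM in OLs. Hspe1 stood at 212, 153 and 190.4 FPKM in OPCs and at 111 and 89.1 FPKM in OLs. Neither pair of groups overlapped, and the log2 changes were -0.87 ± 0.22 (limma adjusted p = 0.0221) and -0.88 ± 0.24 (adjusted p = 0.028). Both calls were lost without OPC replicate 3 (limma adjusted p = 0.0601 and 0.103). That of Hspe1 was also lost in a fit with a replicate term (limma adjusted p = 0.0737). Both mRNAs sat at the 6 h ceiling in all replicates, and neither slope passed the test in either cell type. Hspa9, the mitochondrial Hsp70, was at the ceiling too, with 72.4, 81.5 and 81.4 FPKM in OPCs and 60 and 77 FPKM in OLs, values that overlapped.

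Hspd1 and Hspe1 lie head to head on mouse chromosome 1, with RefSeq start sites 216 bases apart, and share the DNA between them as promoter. The stretch that holds heat shock elements is printed because it is common to both promoters, and its part in the changes at 0 h was not tested. It is read on the plus strand, that of Hspe1, from RefSeq promoter windows of 250 bases before to 50 bases after each start site (GRCm38.p6, chr1:55088044-55088091), with the elements in capitals:
Hspe1 and Hspd1: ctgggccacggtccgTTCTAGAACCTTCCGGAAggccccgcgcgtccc
The capitals hold 2 overlapping matches to a run of 3 inverted units, searched as GAANNTTCNNGAA and TTCNNGAANNTTC on both strands. This run was found in 0.662% of 27025 genes with RefSeq promoter windows of the same length. Of 75 chaperone genes 61 had a window, and 4 of these held the run: Hspd1, Hspe1, Dnajb6 and Hsph1. The shorter run of 2 units, GAANNTTC or TTCNNGAA, is part of the longer one and was found in 15 of 61 chaperone genes and in 17.0% of all genes with a window.

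Dnajb6 is shown beside them because its window also held the run of inverted units. The stretch lies at chr5:29735837-29735879 (plus strand, GRCm38.p6), upstream of the start site:
Dnajb6: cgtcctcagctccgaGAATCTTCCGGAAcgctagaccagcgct
The match in Hsph1 lies after the start site. Hsph1, the Hsp110 exchange factor, had a half-life of 2.20, 1.96 and 2.16 h in OPCs and 1.58 and 2.13 h in OLs, far from the ceiling at which Hspd1 and Hspe1 sat. Its 0 h level was uneven, 1.90, 13.3 and 8.47 FPKM in OPCs and 19.9 and 22.8 FPKM in OLs. The OL values were above all OPC values, but the log2 difference of 1.61 ± 0.58 did not pass (limma adjusted p = 0.0707). Without OPC replicate 1, the lowest library, the difference was 0.94 and passed (limma adjusted p = 0.0266). Dnajb6, a J protein known for holding aggregation-prone proteins, had half-lives of 4.08, 4.55 and 6 h in OPCs and 6 h in both OL replicates. At 0 h both OL values of Dnajb6 lay above all OPC values, beside 28.0% of all transcripts, and it did not pass the limma test.

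No Hsp90 slope passed the test as falling in either cell type, and 1 of 3 passed as rising in OPCs. Hsp90b1, the ER member also called Grp94 (ENSMUSG00000020048, GRCm38 chromosome 10, 86690840 to 86705509), read 124%, 109.5%, 311% and 203% of 0 h at 1, 2, 4 and 6 h in OPC replicate 1. In replicate 2 it read 80.3%, 135%, 101% and 124%, and in replicate 3 it read 120.0%, 167%, 265% and 204%. Every OPC value from 2 h on was thus above 0 h. In OL replicate 1 the values were 65.7%, 58.5%, 61.3% and 55.0%, and in OL replicate 2 they were 119%, 77.5%, 101% and 116%. Its OPC slope, 0.16 ± 0.05 log2 units per h, was the 1 chaperone slope of 64 that rose past the threshold (limma adjusted p = 0.00683), beside 4.31% of all transcripts. That call was lost without OPC replicate 1 (adjusted p = 0.0541) or OPC replicate 3 (adjusted p = 0.0634). Levels above 0 h in every OPC replicate were seen for 3 members at 2 h, Hsp90b1, Hsp90aa1 and Dnajc9 (a J protein that also binds histones), or 4.69% of members beside 2.13% of all transcripts. At 1 h there were 0, beside 1.08%, at 4 h 6 (9.38% beside 6.82%) and at 6 h 2 (3.13% beside 4.41%), Hsp90b1 and Pfdn5, so the members' share was above the background at 2 and 4 h and below it at 1 and 6 h. In OLs Hspb8 was above 0 h in both replicates at 1 h and Hspbp1 at 2 h, or 1.33% of members each time, beside 1.91% and 3.10% of all transcripts, with 8 members at 4 h (10.7% beside 9.81%) and 5 at 6 h (6.67% beside 5.18%). All levels are relative to the spike-ins of each library, whose part in this rise was not tested.

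Hsp90ab1, the constitutive cytosolic Hsp90, had the highest mean 0 h level of the 64 members in OPCs. It stood at 593, 539 and 633 FPKM in OPCs and 369 and 355 FPKM in OLs, a log2 change of -0.70 ± 0.21 (limma adjusted p = 0.0385) that turned to 0.27 under quantile normalization. The Hsp90ab1 call was also lost with a replicate term (limma adjusted p = 0.179) and without OPC replicate 3 (limma adjusted p = 0.156). Hsp90aa1, its stress-inducible partner, was at 53.9, 101 and 73.5 FPKM in OPCs and 87.2 and 78.2 FPKM in OLs, which overlapped. All 3 Hsp90 mRNAs were at or near the 6 h ceiling, the single value below it being 5.67 h for Hsp90b1 in OL replicate 1.

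Hspa8, the constitutive cytosolic Hsp70 known as Hsc70 (ENSMUSG00000015656, GRCm38 chromosome 9, 40800984 to 40805200), behaved unlike Hsp90ab1 although their 0 h levels were similar. At 6 h of chase Hspa8 had 18.1%, 22.5% and 30.5% of its 0 h level in OPCs and 78.9% and 89.1% in OLs. Its half-life was 2.43, 2.83 and 3.50 h in OPCs and 6 h in both OL replicates. The groups did not overlap in either measure. The log2 difference in half-life, 1.05 ± 0.18, did not pass (limma adjusted p = 0.0853), whereas the slopes, -0.33 ± 0.04 in OPCs and -0.01 ± 0.05 log2 units per h in OLs, differed by 0.31 ± 0.06 (limma adjusted p = 0.000824). The slope test takes no account of the spread of slopes between replicates. At 0 h Hspa8 stood at 578, 531 and 533 FPKM in OPCs and at 367 and 327 FPKM in OLs. That log2 change of -0.66 ± 0.21 passed narrowly (limma adjusted p = 0.0461), turned to 0.28 under quantile normalization and lost its call under 8 of the other 10 alternatives.

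Other Hsp70 mRNAs differed widely in half-life. Hspa5, the ER member also called BiP, had 4.55, 2.95 and 6 h in OPCs and 2.62 and 6 h in OLs, with 168, 153 and 158 FPKM in OPCs and 126 and 169 FPKM in OLs at 0 h, so both measures overlapped. Hspa14, a ribosome-bound Hsp70, had 1.86, 2.05 and 1.86 h in OPCs and 3.32 and 5.60 h in OLs. Its fall in OPCs, -0.78 ± 0.09 log2 units per h, was the steepest of the 64 members, against -0.24 ± 0.05 in OLs. Hspa2 had 1.64, 1.96 and 3.32 h in OPCs and 6 h in both OL replicates. At 0 h Hspa2 rose from 5.73, 4.08 and 6.12 FPKM in OPCs to 20.4 and 16.2 FPKM in OLs, the highest log2 change among members that passed, at 1.62 ± 0.24 (limma adjusted p = 0.00256).

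Hspa4, an Hsp110-type exchange factor, rose from 43.0, 79.7 and 58.8 FPKM to 119 and 104 FPKM (log2 change 0.91 ± 0.29, limma adjusted p = 0.0449) with half-lives of 5.41 h or more in every replicate. That call was lost in 6 of 11 alternatives, among them without OPC replicate 1, OPC replicate 3 or either OL replicate (limma adjusted p up to 0.216). The stress-inducible Hsp70 genes were near the lowest levels listed. Hspa1b stood at 1.51, 1.44 and 1.55 FPKM in OPCs and 5.75 and 5.79 FPKM in OLs, and passed (log2 change 1.44 ± 0.20, limma adjusted p = 0.00189). Hspa1a was listed in OLs alone, at 4.02 and 5.77 FPKM. The annotated transcripts of these paralogs share 90.7% of 2797 aligned bases, so reads may be split between them and both values are uncertain. Hspb1, the small heat shock protein Hsp27, was in neither table, and Hspb8 was listed in OLs alone, at 4.91 FPKM in replicate 1 and 41.5 FPKM in replicate 2. Cryab, a small heat shock protein outside the symbol rule, stood at 9.53 and 45.3 FPKM, and the summed oligodendrocyte markers were 5997 and 2744 FPKM in the same replicates. Their part in the Hspb8 values was not tested.

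The J proteins are the largest family and held most of the short-lived mRNAs. In OPCs 24 of 26 fell during the chase, beside 81.7% of all transcripts, and in OLs 24 of 31, beside 68.4%. Dnajb1, the J protein that partners cytosolic Hsp70 in disaggregation, had the shortest mean half-life of the members in OPCs, 0.955 h, from 0.808, 1.12 and 0.938 h, with 1.04 and 2.19 h in OLs. At 2 h its level was 18.0%, 21.3% and 13.6% of 0 h in OPCs, and 26.4% and 64.9% in OLs. In OLs the lowest mean half-life among J proteins was that of Dnajc6, or auxilin, at 1.06 and 1.61 h. Dnaja1, a farnesylated partner of cytosolic Hsp70, rose at 0 h from 10.6, 20.9 and 14.9 FPKM in OPCs to 34.7 and 33.1 FPKM in OLs (log2 change 1.13 ± 0.29, limma adjusted p = 0.023). Dnajc7, which binds both Hsp70 and Hsp90, rose from 18.2, 27.7 and 17.9 FPKM to 41.7 and 35.6 FPKM, and Dnajb14, of the ER membrane, from 2.92, 5.12 and 4.77 FPKM to 8.1 and 8.36 FPKM. Each of these had both OL values above all OPC values, beside 28.0% of all transcripts. Without OPC replicate 3 each lost its call (limma adjusted p = 0.0718 for Dnaja1, 0.145 for Dnajc7 and 0.0931 for Dnajb14). At the other end Dnajb11 and Dnajc10, both of the ER, averaged 6 h in OPCs.

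A single member passed the half-life test between cell types. Dnaja3, the mitochondrial J protein also called Tid1 (ENSMUSG00000004069, GRCm38 chromosome 16, 4684070 to 4707695), had half-lives of 2.01, 1.96 and 2.41 h in OPCs and 4.90 and 5.49 h in OLs. The groups were well apart, with means of 2.13 ± 0.248 h (SD, n = 3) and 5.2 ± 0.415 h (SD, n = 2) and a log2 difference of 1.29 ± 0.13 (limma adjusted p = 0.0407). At 6 h it kept 3.82%, 7.32% and 0% of its 0 h level in OPCs and 42.8% and 46.9% in OLs. Its 0 h level, 21.5, 17.2 and 18.0 FPKM in OPCs and 22.5 and 26.3 FPKM in OLs, did not pass (limma adjusted p = 0.251). So 1 of 64 members was longer-lived in OLs, beside 3.39% of 8112 transcripts, and 0 of 64 were shorter-lived by limma, beside 0.148%. At an unadjusted p under 0.05 the counts were 12 and 0 of 64 members, and 1801 and 65 of all 8112 transcripts. The Dnaja3 call was kept in 4 of 12 alternatives and lost when OPC replicate 1, OPC replicate 2 or either OL replicate was left out. Its log2 difference was 0.39 with half-lives centred on the median, 0.50 with them rescaled to one mean decay curve and 0.55 without the 6 h libraries (limma adjusted p = 0.331, 0.309 and 0.678).

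**Figure D3:**
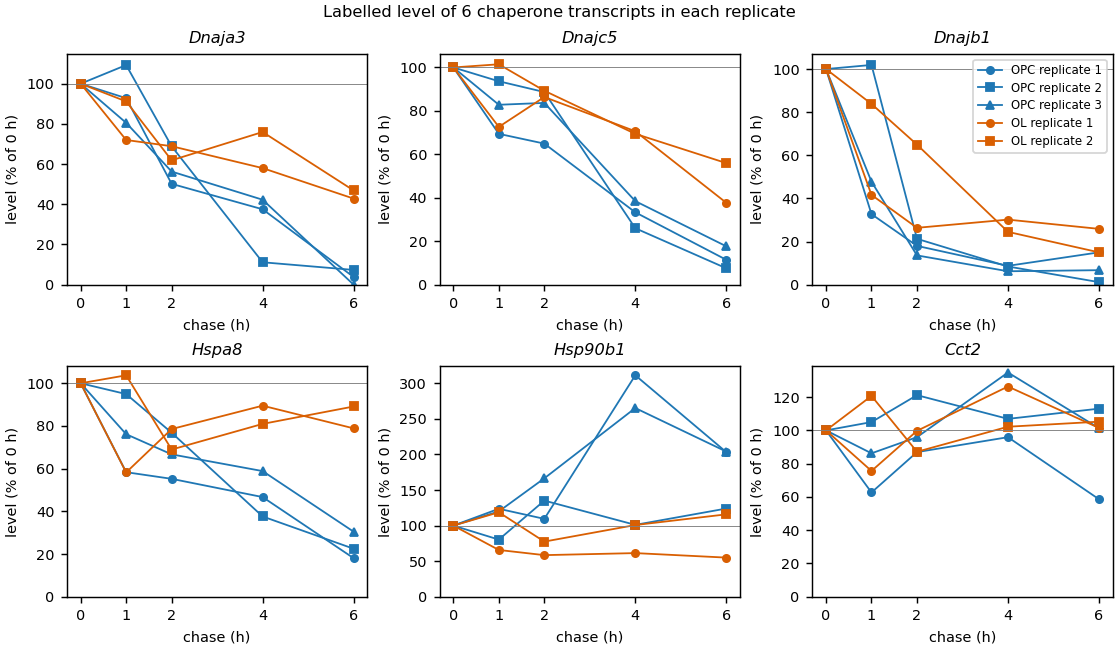
Labelled level (% of 0 h) against hours of chase for 6 chaperone transcripts, with 1 line per replicate (OPC blue, OL orange) and a vertical scale of its own in each panel. For Dnaja3, Dnajc5 and Hspa8 both OL lines end above all OPC lines at 6 h, Dnajb1 ends low in all 5 replicates, and Hsp90b1 exceeds 100% in OPCs.

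Several J proteins came close. Dnajc5, the cysteine string protein of vesicles, had 2.52, 2.06 and 2.9 h in OPCs and 6 h in both OL replicates (limma adjusted p = 0.0594). Dnajc18 had 2.08, 2.08 and 2.29 h in OPCs and 4.32 and 5.74 h in OLs (limma adjusted p = 0.0563). Bag2, an inhibitor of the ubiquitin ligase Chip, followed the same course with 2.08, 1.96 and 1.96 h against 4.42 and 3.49 h (limma adjusted p = 0.0559). In all, 19 of 64 members had both OL half-lives above every OPC half-life, beside 35.9% of transcripts, and 0 had both below, beside 2.01%. The median log2 difference was 0.05 over the members and 0.37 over all transcripts. A member at the ceiling in every replicate has a difference of 0, and 18 members were of this kind.

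Some equal half-lives came from the fit and not from equal data. Where the levels at 1 and 2 h lie above the fitted curve and those at 4 and 6 h below it, a fit by least absolute deviations gives 1.96 h whatever the levels are, and such a fit returned the deposited half-life within 0.01 h for 98.2% to 99.9% of transcripts. Within 0.01 h of that value were 1, 11 and 8 of 64 members in OPC replicates 1, 2 and 3, and 1 of 75 in each OL replicate. Over all transcripts the shares were 2.46%, 25.9%, 7.83%, 0.629% and 1.64%. Hsf2 took this value in all 3 OPC replicates, so its OPC spread is not a measure of error. Dnaja3 took it in OPC replicate 2, and Bag2 in OPC replicates 2 and 3.

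Slopes do not have the 6 h ceiling, but they have a floor, since a level listed at 0 cannot fall further. Listed at 0 at 6 h were 6, 9 and 7 of 64 members in OPC replicates 1, 2 and 3. Over all transcripts this share was 15.7%, 21.6% and 16.4%. In OL replicates 1 and 2 it was 3 and 1 of 75 members, beside 4.08% and 0.79%. In OPCs 43 of 64 members fell during the chase, a share of 67.2%, beside 81.7% of all transcripts. In OLs 42 of 75 members fell, a share of 56.0%, beside 68.4%, and 0 rose by limma, beside 1.5%, with 46 of 75 members falling and 0 rising at an unadjusted p under 0.05, and 6852 and 196 of all 9751 transcripts. The median slope of the members was -0.32 log2 units per h in OPCs and -0.13 in OLs, and that of all transcripts -0.38 and -0.20. With a pseudocount of 0.1 FPKM these medians were -0.35 and -0.16 for the members and -0.52 and -0.25 for all transcripts. When every library was set to its 0 h median, 7 members fell and 34 rose in OPCs, and 4 fell and 35 rose in OLs, so these directions are relative to the spike-ins. On that scale 39.8% of all transcripts rose and 13.9% fell in OPCs, and 31.2% rose and 13.8% fell in OLs. All 7 chaperonin subunits rose in OPCs and 6 of 7 in OLs. Among J proteins 8 rose and 4 fell in OPCs, and 8 rose and 1 fell in OLs.

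**Figure D4:**
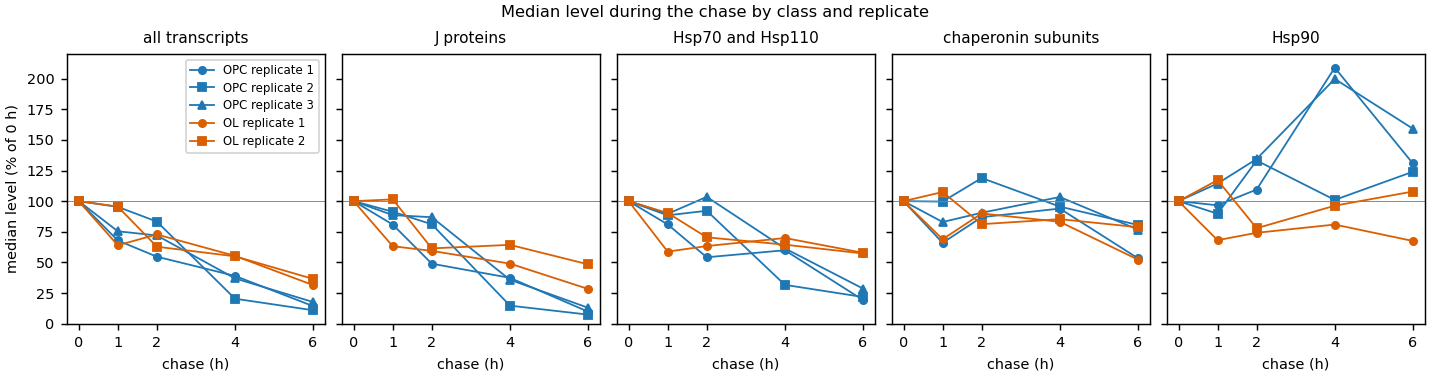
Median labelled level (% of 0 h) against hours of chase for all transcripts and 4 chaperone classes, with 1 line per replicate (OPC blue, OL orange). At 6 h the Hsp70 and Hsp110 medians end at 19.4% to 28.7% in OPCs and at 57.9% and 57.3% in OLs, and no chaperonin median is below 52.3%.

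The difference between the OL and OPC slopes was tested with limma, with an intercept for each replicate and a single slope for each cell type. The spread of slopes between replicates therefore does not enter its error, and its p values may be too small. The fits of decline within a cell type have the same limit. Of 64 members 17 fell more slowly in OLs, beside 32.1% of all transcripts, and 1 did the reverse, beside 0.391%. The median difference was 0.11 log2 units per h over the members and 0.14 over all transcripts, and the share of members called, 26.6%, was below the background. They were 11 J proteins (Dnaja3, Dnajc11, Dnajb9, Dnajc24, Dnaja2, Dnajc5, Dnajc27, Dnajb6, Dnajb5, Dnajb12 and Dnajc18), 3 Hsp70s (Hspa14, Hspa8 and Hspa2), Bag2, Bag3 and Hsf1. Hspa14 had the greatest difference, 0.54 ± 0.13, followed by Dnaja3 at 0.45 ± 0.08. No chaperonin, prefoldin or Hsp60 subunit passed. The exception in the other direction was Hsp90b1, at -0.20 ± 0.07 (limma adjusted p = 0.0348).

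**Figure D5:**
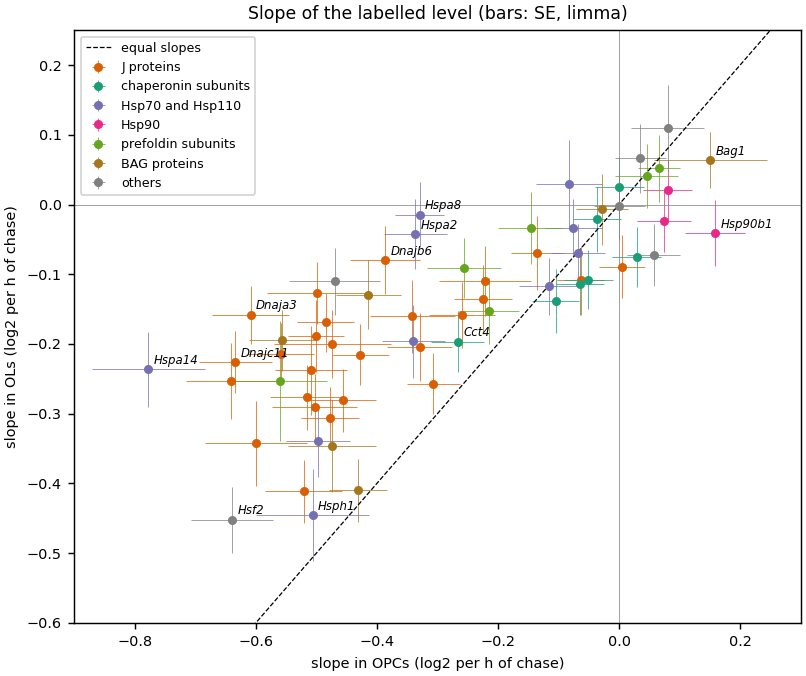
Slope of log2(FPKM + 1) per hour of chase in OPCs (horizontal) and OLs (vertical) for the 64 members, coloured by class, with SE bars from limma and a dashed line for equal slopes. Hspa14 lies farthest to the left at -0.78, Cct2 lies near 0 on both axes, and Hsp90b1 lies below the line.

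Hsf1, the main activator of the heat shock response, had 1.37, 2.92 and 0.899 h in OPCs and 6 and 4.38 h in OLs. This log2 difference of 1.74 in half-life did not pass by limma, whereas its slopes differed by 0.36 ± 0.10 (limma adjusted p = 0.0104). Its level at 4 h was 13.3%, 9.06% and 4.58% of 0 h in OPCs and 93.1% and 52.6% in OLs. Hsf2 fell in both cell types, with 7.39%, 7.96% and 7.55% left at 6 h in OPCs and 8.10% and 17.3% in OLs. Neither factor passed the test at 0 h, where Hsf1 had 28.6, 17.7 and 21.0 FPKM in OPCs and 12 and 19.6 FPKM in OLs.

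Of 6 BAG mRNAs, 4 fell in each cell type, beside 81.7% of all transcripts in OPCs and 68.4% in OLs, and 2 stayed at the ceiling. Bag1, an exchange factor that also binds Raf kinase, rose at 0 h from 16.8, 9.76 and 14.6 FPKM to 46.2 and 35.6 FPKM (log2 change 1.53 ± 0.28, limma adjusted p = 0.0059) and was at the ceiling in every replicate. Bag6, which guards membrane proteins before insertion, was at the ceiling as well. Bag3, which acts in chaperone-assisted autophagy, had the shortest half-lives of the class in OPCs, 0.715, 0.709 and 1.96 h, and was listed at 0 at 4 and 6 h in all 3 OPC replicates, from 3.3, 5.47 and 3.71 FPKM at 0 h. Bag4 and Bag5 fell in both cell types.

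By half-life 5 of the 6 prefoldin mRNAs had 3.89 h or more in every replicate. Pfdn1, Pfdn5 and Pfdn6 were at the ceiling in all replicates, and the lowest values came from Vbp1 and Pfdn2. Pfdn4 stood apart, with 1.61, 1.86 and 2.05 h in OPCs and 2.13 and 6 h in OLs. By slope 4 of 6 fell in OPCs (Pfdn2, Pfdn4, Pfdn6 and Vbp1), beside 81.7% of all transcripts, and 2 of 6 in OLs (Pfdn4 and Vbp1), beside 68.4%. Pfdn6, at the ceiling by half-life, was among them in OPCs at -0.15 ± 0.05 log2 units per h (limma adjusted p = 0.0174). The median prefoldin level left at 6 h was 24.1%, 53.3% and 52.7% of 0 h in OPCs and 61.9% and 76.5% in OLs. At 0 h 0 of 6 prefoldin subunits passed by limma, also at an unadjusted p under 0.05, at which 1632 transcripts were higher and 1875 lower of all 8177, and their log2 differences ran from -0.54 to 0.28.

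ER chaperones showed no common course. Of 11 on a list of this compartment, which includes members of other classes, 2 were higher in OLs at 0 h (Dnajb9 and Dnajc3), 1 was lower (Dnajc10), and the median log2 difference was 0.36 against -0.01 over all transcripts. Dnajb9, a J protein that restrains the stress sensor Ire1, rose from 12.4, 22.4 and 12.5 FPKM to 32.5 and 52.5 FPKM (log2 change 1.39 ± 0.33, limma adjusted p = 0.0168). The Dnajb9 call was lost without OL replicate 2 (adjusted p = 0.131) or OPC replicate 3 (adjusted p = 0.063). Dnajc3, an inhibitor of the kinase Perk, rose from 20.3, 32.4 and 20.0 FPKM to 40.3 and 46.0 FPKM (log2 change 0.84 ± 0.27, limma adjusted p = 0.0485). It lost its call in 6 of 11 alternatives, among them without OPC replicate 1, OPC replicate 3 or either OL replicate (limma adjusted p up to 0.212). Dnajc10, which reduces disulfide bonds, fell from 47.7, 52.0 and 41.2 FPKM to 29.6 and 28.4 FPKM (log2 change -0.67 ± 0.22, limma adjusted p = 0.0489). Its call was lost in 7 of 11 alternatives, including each of the 5 that left out 1 replicate (limma adjusted p up to 0.177).

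ER stress elements, known from promoters of some ER chaperones, were searched as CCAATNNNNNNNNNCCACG and its reverse complement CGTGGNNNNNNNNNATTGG. They were found in 0.137% of all genes with a window and in 3 of 61 chaperone genes, all of the ER: Hspa5, Hsp90b1 and Dnajc3. The stretches are shown because these 3 genes share the element. They lie at chr2:34772010-34772058 (plus strand) for Hspa5, chr14:118937812-118937860 (plus strand) for Dnajc3 and chr10:86705518-86705671 (minus strand) for Hsp90b1, GRCm38.p6, with the element, which Hsp90b1 holds 2 times, in capitals:
Hspa5: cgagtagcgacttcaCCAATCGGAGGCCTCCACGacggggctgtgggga
Dnajc3: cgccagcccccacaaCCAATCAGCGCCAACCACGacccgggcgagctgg
Hsp90b1: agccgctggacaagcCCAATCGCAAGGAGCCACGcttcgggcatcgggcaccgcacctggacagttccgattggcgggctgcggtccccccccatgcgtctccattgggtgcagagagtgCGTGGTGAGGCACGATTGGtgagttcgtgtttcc
The mRNAs of Hspa5 and Dnajc3 fell during the chase in OPCs, by slopes of -0.34 ± 0.05 and -0.33 ± 0.05 log2 units per h, while Hsp90b1 rose. At 0 h Dnajc3 was higher in OLs and Hspa5 and Hsp90b1 did not pass.

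The classes also differed in features of their transcripts. The median 3′ UTR was 245 bases for chaperonin subunits, 262 for Hsp90s and 1395 for J proteins, beside 1096 over all transcripts. G or C ended 43.4% of chaperonin codons and 53.9% of J protein codons by median, beside 60.6% over all transcripts. UUU made up 60.0%, 57.1% and 44.4% of phenylalanine codons in chaperonin subunits, J proteins and all transcripts. Across the members, half-life and 3′ UTR length had Spearman's rho of -0.32, -0.49 and -0.37 in OPC replicates 1, 2 and 3 (64 members) and of -0.41 and -0.40 in OL replicates 1 and 2 (75 members). Over all transcripts the same rho was -0.12, -0.20 and -0.10 in OPCs and -0.21 and -0.19 in OLs. With the share of codons ending in G or C, rho was -0.34, -0.27 and -0.33 in OPCs (63 members) and 0.07 and -0.13 in OLs (74 members), and over all transcripts -0.06, 0.07 and -0.06 in OPCs and 0.29 and 0.11 in OLs. These are descriptions across genes that share a library and fall into families.

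Partners outside the symbol rule were read from lists chosen for this work. Of 21 co-chaperones tested at 0 h, 2 were higher in OLs (Cdc37l1 and Chordc1), beside 13.8% of all transcripts, and 3 lower (Fkbp4, Stub1 and Trap1), beside 15.8%. The same backgrounds apply to the other lists. Cdc37l1 had the largest rise (log2 change 1.84, limma adjusted p = 0.000687) and Fkbp4 the largest fall (log2 change -1.19, limma adjusted p = 0.00832). Chordc1, an Hsp90 partner that is itself heat-inducible, rose from 5.58, 17.3 and 14.2 FPKM to 30.0 and 33.7 FPKM (log2 change 1.42, limma adjusted p = 0.0347). Trap1, the mitochondrial Hsp90, fell from 66.2, 42.2 and 54.1 FPKM to 25.3 and 24.9 FPKM (log2 change -1.06, limma adjusted p = 0.0162) and stayed at the 6 h ceiling in all replicates, as did Hspd1, Hspe1 and Hspa9. Of 7 mitochondrial chaperones tested, 3 were lower in OLs (Hspd1, Hspe1 and Trap1). Of 12 heat shock factor targets tested, from a list of 16, 3 were higher (Dnaja1, Hspa1b and Hspa4) and 4 lower (Hsp90ab1, Hspa8, Hspd1 and Hspe1).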

How the data were processed

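Labelled RNA of OPCs (3 replicates) and OLs (2 replicates) was sequenced at 5 times of a uridine chase, and 1 library without biotin was not analysed here. The authors deposited FPKM values, scaled to the reads of labelled spike-ins and limited to transcripts of at least 1 FPKM at 0 h, and half-lives in hours fitted to each replicate, with values above 6 h set to 6 h. Their methods also remove transcripts that read 0 FPKM at 1 and 2 h, so one that is not listed need not be low at 0 h. The submitters' processing notes name HISAT2 2.1.0 and StringTie 1.3.5 on GRCm38. Read depth is unknown from these values, so no counting interval is given. Chaperone genes were chosen by symbol, and the members and lists were chosen with earlier results of these data known. Half-lives (log2) and levels (log2 of FPKM + 1) were compared with limma 3.58.1 in R 4.3.3 over all transcripts, and declines as slopes over 0 to 6 h, with Benjamini-Hochberg adjusted p under 0.05. Genes were named where they passed the half-life test, were among the 10 highest or lowest changes at 0 h that passed without overlap, had the longest or shortest mean half-life of a class, rose above 0 h at 1 or 2 h in all replicates, or stood on a list of well-known chaperones. Dnajc18, Bag2, Hspa14, the members named by their slopes and some others were added after their values were seen. The study's methods call the replicates biological and the OLs matched to 2 of the OPC replicates, not named, so the main fits have no replicate block. Transcript features came from the GENCODE M21 annotation, a later release than the one the authors used, and promoters from RefSeq (GRCm38.p6). Tables were made with python 3.11.15, pandas 2.3.3, numpy 2.4.6 and scipy 1.17.1. The fits were tested on simulated data. Replicate numbers were checked for pairing, and alternatives covered scaling, pseudocount, low-value filter, variance model, time points and each replicate left out.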

Additional observations from a re-analysis of the deposited data

Results flagged for a closer look

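For 18 of 64 chaperone mRNAs the slope of the labelled level over the chase differed between OLs and OPCs by the test of the difference itself (limma, adjusted p from 0.000707 to 0.0351). Of these 17 fell more slowly in OLs, or 26.6% of members beside 32.1% of all transcripts, and 1 did the reverse, beside 0.391%, so the count is no result about chaperones. The test takes no account of the spread of slopes between replicates. The differences, OL minus OPC in log2 units per h, are to be read beside the median of 0.14 over all transcripts. Among J proteins they were 0.45 for Dnaja3, 0.41 for Dnajc11, 0.39 for Dnajb9, 0.37 for Dnajc24, 0.34 for Dnaja2, 0.32 for Dnajc5, 0.31 for Dnajc27, 0.31 for Dnajb6, 0.27 for Dnajb5, 0.24 for Dnajb12 and 0.21 for Dnajc18. Among Hsp70s they were 0.54 for Hspa14, 0.31 for Hspa8 and 0.29 for Hspa2. Bag2 had 0.36, Bag3 0.28 and Hsf1 0.36. Hsp90b1 alone among the 64 differed in the other direction past the threshold, at -0.20.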

How the results depend on the processing

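The half-life comparison, with 1 member called, gave 0 when the half-lives were centred on the median of each replicate, rescaled to one mean decay curve, refitted without the 6 h libraries or fitted with a replicate block, 3 with a variance trend, and 18 as a difference of slopes. It gave 0 to 2 with 1 replicate left out. Against 20 members called at 0 h, the replicate block called 10 and leaving out 1 replicate gave 4 to 18. Dnaja3 lost its call under the block (adjusted p = 0.168), as did 11 of the 20 at 0 h, among them Cct3, Cct4, Hspe1, Hsp90ab1 and Hspa8. The OLs match 2 OPC replicates whose numbers are not given. Deviations of same-numbered replicates correlated at -0.0016 and -0.11 in half-life and at 0.06 and 0.01 in 0 h level, so the numbers were not shown to pair them. Other pairs reached 0.11 (OPC replicate 2 with OL replicate 1) and 0.10 (OPC replicate 3 with OL replicate 2) in half-life. In 0 h level OPC replicate 3 with OL replicate 2 had the highest value, 0.09. The level of Hspa8 turned to 0.28 and that of Hsp90ab1 to 0.27 under quantile normalization. In OPCs 43 members fell, 7 did with each library set to its 0 h median, and 39 to 41 with 1 replicate left out. In OLs 42 fell, 4 with the median set, 27 without the 6 h libraries, and 24 to 29 with 1 replicate left out. The causes were not tested, except that fewer samples and time points enter where libraries were left out. The 6 h ceiling hides differences among long-lived mRNAs, and 2 OL replicates limit every comparison.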
